A study of Mus musculus with 4 samples.

Results

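The Hippo-YAP pathway and its target genes were examined in nascent RNA of mouse liver with and without *Hdac3*. The set holds 10 genes, chosen by name as core parts or known targets of the pathway: *Yap1*, *Wwtr1*, *Tead1*, *Lats1*, *Lats2*, *Ctgf*, *Cyr61*, *Amotl2*, *Ajuba* and *Axl*. They are 10 of the 20642 gene symbols measured, 9 of them listed under these symbols and *Ajuba* under its older symbol *Jub*, matched through its RefSeq accession. All 10 belong to the 12705 genes counted as active, those with reads near the promoter and, averaged over the libraries, more than 4 normalized reads per kb of gene body.

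Precision nuclear run-on sequencing (PRO-seq) maps polymerases at work by the RNA they extend in isolated nuclei. The mice were sampled at postnatal day 14, were on a C57BL/6 background and all carried *Alb-Cre*, a Cre recombinase under the albumin promoter, which is active in the hepatocyte lineage. WT mice were *Alb-Cre*+ *Hdac3*+/+ and KO mice were *Alb-Cre*+ *Hdac3* fl/fl or fl/-, a mixture that the libraries do not separate. Each library was made from the nuclei of 9 pooled mice, with 2 WT libraries (WT1, WT2) and 2 KO libraries (KO1, KO2). Liver cells outside the hepatocyte lineage were sequenced together with hepatocytes. Which cell types had lost *Hdac3* was not measured here, and in fl/- mice cells without recombination keep 1 intact *Hdac3* allele.

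The Hippo pathway is a kinase cascade that restrains the growth of organs, and the liver is one of the organs where its loss is known to cause overgrowth. Its last kinases, LATS1 and LATS2, phosphorylate the coactivators YAP (*Yap1*) and TAZ (*Wwtr1*), which keeps them out of the nucleus. Unphosphorylated YAP and TAZ bind TEAD factors such as TEAD1 on DNA and raise the transcription of target genes. The regulation thus acts on the protein and its place in the cell, which PRO-seq does not measure.

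The deposited values were reads times a scaling factor per library, called normalized reads here, in 2 regions of each gene. The promoter-proximal value is that of the 50 bp stretch holding the most reads near the transcription start site (TSS), and the gene body value from the region that begins 1 kb after the TSS. Reads on genes ranged from 16628518 in KO2 to 26190040 in WT2, of which promoter-proximal windows took 10.3% and 9.38% in the WT libraries, against 13.6% (KO1) and 17.0% (KO2). The targeted gene *Hdac3* had 665 and 648 normalized gene body reads in WT and 609 and 582 in KO (log2 fold change -0.14, SE 0.13, adjusted p = 0.413). These reads cover the whole gene body and the deleted stretch is not given in the sources used here, so they do not check the genotypes, which rest on the labels.

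The promoters of the 4 genes called in either region are shown first, because the DNA motif of TEAD factors, the partners of YAP and TAZ, can be looked up in them. The sequences are RefSeq windows of build GRCm38.p6 from 250 bases before to 50 bases after the gene start, all on the minus strand and written 5′ to 3′ along the gene. They come from chr9:8004547-8004846 (*Yap1*), chr14:57746074-57746373 (*Lats2*), chr3:145649936-145650235 (*Cyr61*) and chr7:25788684-25788983 (*Axl*). Capitals mark the TEAD motif, GGAATG or CATTCC on the other strand, and in *Cyr61* also the TATA box motif TATAAA.
Yap1: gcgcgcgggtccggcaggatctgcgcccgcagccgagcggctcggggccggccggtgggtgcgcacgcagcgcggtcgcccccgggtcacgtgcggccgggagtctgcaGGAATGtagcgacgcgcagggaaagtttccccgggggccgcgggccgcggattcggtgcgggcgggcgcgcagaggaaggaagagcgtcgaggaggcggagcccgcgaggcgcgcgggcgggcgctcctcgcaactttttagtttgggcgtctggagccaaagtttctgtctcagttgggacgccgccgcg
Lats2: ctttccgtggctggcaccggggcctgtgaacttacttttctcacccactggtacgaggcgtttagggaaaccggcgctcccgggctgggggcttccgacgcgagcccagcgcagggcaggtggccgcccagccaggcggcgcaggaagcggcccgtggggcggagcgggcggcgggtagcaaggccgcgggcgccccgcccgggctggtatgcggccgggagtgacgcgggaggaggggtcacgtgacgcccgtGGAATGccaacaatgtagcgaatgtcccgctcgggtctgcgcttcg
Cyr61: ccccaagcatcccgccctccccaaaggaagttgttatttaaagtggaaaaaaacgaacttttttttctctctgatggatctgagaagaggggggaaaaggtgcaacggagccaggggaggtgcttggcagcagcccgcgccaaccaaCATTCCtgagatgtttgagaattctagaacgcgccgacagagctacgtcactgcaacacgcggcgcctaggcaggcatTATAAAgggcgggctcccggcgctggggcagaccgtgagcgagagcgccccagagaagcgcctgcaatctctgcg
Axl: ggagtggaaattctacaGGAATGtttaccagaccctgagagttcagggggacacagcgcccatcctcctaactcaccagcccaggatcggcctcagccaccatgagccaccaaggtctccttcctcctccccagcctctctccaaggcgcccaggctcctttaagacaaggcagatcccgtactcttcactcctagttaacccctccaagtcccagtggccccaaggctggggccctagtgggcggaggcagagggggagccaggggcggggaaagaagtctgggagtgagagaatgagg

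The motif begins 141 bases upstream of the gene start in *Yap1*, 103 bases upstream in *Cyr61* and 233 bases upstream in *Axl*, and 4 bases downstream of it in *Lats2*. It was found in 7 of the 8 member genes with a promoter entry, *Lats1* being the one without, and in 14.7% of all 32851 promoter windows of the same length. *Tead1* and *Ctgf* have no entry. Among the other genes of the lists described further on, it was in 3 of 12 Hippo kinases and upstream regulators, 5 of 8 genes of the YAP/TAZ-TEAD module, 3 of 11 YAP/TAZ target genes and 0 of 11 immediate-early genes with an entry. Several of the members are known YAP/TAZ targets, so this share is a description of a chosen set. A match of letters is not a bound site, and no binding was measured here.

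The 3 other windows with the motif are shown only around it, to compare its surroundings, and were chosen after the values were seen. They lie on chr3:57576033-57576054 (minus strand, *Wwtr1*), chr9:102717731-102717752 (plus strand, *Amotl2*) and chr14:54577812-54577855 (minus strand, *Ajuba*), on the same build and with the motif in capitals.
Wwtr1: aactcaaaGGAATGcagatagg
Amotl2: aactctcaCATTCCtggcatag
Ajuba: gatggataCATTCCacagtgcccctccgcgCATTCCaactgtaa

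*Ajuba* holds the motif at 2 places, 186 and 164 bases upstream, while *Wwtr1* holds it 136 and *Amotl2* 65 bases upstream. The AP-1 motif TGANTCA, searched because AP-1 and TEAD factors are known to share target sites, was in 0 of the 8 member windows and in 7.81% of all windows. TATAAA was in 1 of the 8, the *Cyr61* window, 25 bases upstream, and in 13.6% of all windows on either strand. The G+C content was 74.0% in *Yap1*, 71.7% in *Lats2*, 60.3% in *Axl* and 57.0% in *Cyr61*, all above the median of 52.7% over all windows.

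In the gene body, *Cyr61* and *Axl* rose in KO livers and none of the 10 genes fell, while 10.4% of all active genes rose and 11.4% fell. Both KO libraries were above both WT libraries for 8 of the 10, and for 27.6% of active genes. At the promoter, *Lats2*, *Axl* and *Yap1* rose and none fell, a share of rises near the 25.8% of all active genes, of which 2.2% fell. *Axl* was thus the member called in both regions, while the coactivator gene *Yap1* had a gene body level that overlapped between the genotypes. In bulk liver, a change in the share of cells of a type and a change in nascent RNA per cell cannot be told apart. The marker values of each cell type follow the pathway lists. Calls needed a log2 fold change beyond 0.6 in either direction together with an adjusted p below 0.05 (limma on log2 of normalized reads plus 1, adjusted over all active genes). With 2 libraries a group, the smallest two-sided p of an exact permutation test is 0.33, so the values of each library are given first.

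**Figure D1:**
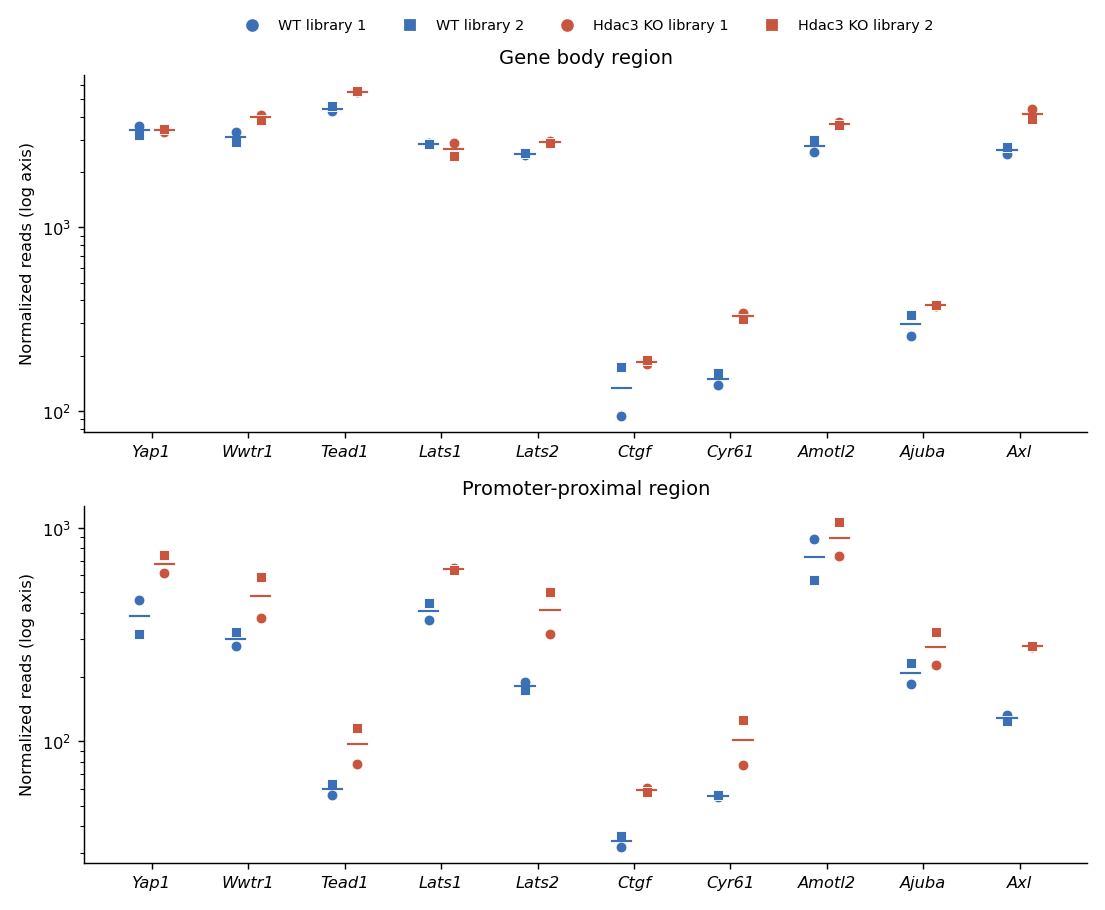
Normalized reads of the 10 genes (log axis) in the gene body (top) and at the promoter-proximal window (bottom), with a point for each library and a line at the mean of each genotype. The KO points of *Cyr61* and *Axl* sit above the WT points in both panels, and those of *Yap1* and *Lats1* overlap the WT points in the gene body.

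The transcriptional coactivators come first. *Yap1* (chromosome 9, 7931999 to 8004638) had 3566 and 3195 normalized gene body reads in WT and 3325 and 3424 in KO, in the order of library 1 and 2 used throughout. Both KO values lay between the WT values, and the log2 fold change was -0.00067 (SE 0.11, adjusted p = 0.997). At the *Yap1* promoter the values were 458 and 318 in WT and 611 and 747 in KO, a log2 fold change of 0.82 (SE 0.29, adjusted p = 0.0259). The genotypes did not overlap there, but the call was lost with the replicate number as a block (adjusted p = 0.0838) and when the region was scaled to its own median of ratios (0.25, adjusted p = 0.497).

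*Wwtr1* (chromosome 3, 57455644 to 57575910), which encodes TAZ, had 3322 and 2918 normalized gene body reads in WT and 4096 and 3849 in KO. The groups did not overlap, and the log2 fold change of 0.35 (SE 0.11, adjusted p = 0.0135) passed the p threshold but not the fold threshold. Its promoter values were 280 and 325 in WT and 378 and 585 in KO, higher in both KO libraries, with KO2 far above the others. The promoter change of 0.64 had an SE of 0.30 and an adjusted p of 0.0901, so it was not called.

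*Tead1* (chromosome 7, 112679356 to 112906784) encodes a DNA-binding partner of YAP and TAZ. Its gene body had 4286 and 4558 normalized reads in WT and 5442 and 5530 in KO, and its log2 fold change of 0.31 (SE 0.11, adjusted p = 0.0224) missed the fold threshold as well. The KO values were close to each other and above both WT values. The promoter window of *Tead1* was among the least covered of the set, with 56.2 and 63.0 normalized reads in WT and 78.5 and 115 in KO, and a log2 fold change of 0.67 (SE 0.36, adjusted p = 0.135).

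Of the kinases *Lats1* and *Lats2*, only *Lats2* was called, and only at the promoter, and the difference between the genes was not tested. *Lats1* (chromosome 10, 7681200 to 7716461) had 2873 and 2831 normalized gene body reads in WT and 2879 and 2443 in KO, so that KO1 matched WT and KO2 was lowest (log2 fold change -0.10, SE 0.11, adjusted p = 0.491). At its promoter it had 369 and 445 in WT and 644 and 632 in KO. These groups did not overlap, but the log2 fold change of 0.65 (SE 0.29, adjusted p = 0.0771) was not called.

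*Lats2* (chromosome 14, 57689662 to 57746212) is both a kinase of the pathway and a known YAP target, and thereby part of a negative feedback. Its promoter values went from 190.5 and 173 normalized reads in WT to 318 and 501 in KO, with KO2 far above KO1. The means differed 2.25-fold and the log2 fold change was 1.13 (SE 0.31, adjusted p = 0.00334), which is 0.57 above the median of all active genes and close to the change of *Axl*. Its gene body moved less, with 2479 and 2541 in WT and 2939 and 2871 in KO (log2 fold change 0.21, SE 0.11, adjusted p = 0.125). The KO libraries were above the WT libraries in both regions. The protein-coding model *Gm49361* overlaps *Lats2* on the same strand, so reads could belong to either.

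*Cyr61* and *Ctgf* encode secreted matricellular proteins of the CCN family and are the targets most used as a readout of YAP activity. *Cyr61* (chromosome 3, 145646971 to 145649985) had 138 and 162 normalized gene body reads in WT and 343 and 319 in KO. Both KO libraries had nearly the same level, well above WT, and the means differed 2.21-fold. The log2 fold change of 1.14 (SE 0.17, adjusted p = 9.32e-06) was the largest gene body change of the set. At the promoter, *Cyr61* had 55.1 and 56.0 in WT and 77.4 and 126 in KO, above WT in both KO libraries but not called (log2 fold change 0.82, SE 0.36, adjusted p = 0.0690). Behind these promoter values stand 48 to 83 reads per library.

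*Ctgf* (chromosome 10, 24595442 to 24598683) did not pass the test in either region. Its gene body had 94.1 (WT1) and 174 (WT2) normalized reads in WT and 181 and 189.8 in KO, so WT1 stood apart and WT2 lay just below the KO libraries. The log2 fold change was 0.53 (SE 0.23, adjusted p = 0.0681), and it was 0.97 (adjusted p = 0.000155) without WT2 and 0.09 (adjusted p = 0.787) without WT1. At the promoter the values were 32.1 and 36.0 in WT and 60.5 and 57.7 in KO, from 28 to 57 reads, with a log2 fold change of 0.78 (SE 0.38, adjusted p = 0.104). The noncoding transcript *Gm15270* overlaps *Ctgf* on the other strand. *Cyr61* and *Ctgf* have the shortest gene bodies of the set, 2015 and 2241 bp, and the fewest WT gene body reads.

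*Axl* (chromosome 7, 25756500 to 25788924) encodes a receptor tyrosine kinase that binds GAS6 and is found on macrophages, endothelial cells and stellate cells. It had 2526 and 2755 normalized gene body reads in WT and 4416 and 3888 in KO, a 1.57-fold difference of the means. The KO libraries were well above the WT libraries, and the log2 fold change was 0.65 (SE 0.11, adjusted p = 4.56e-05). The promoter values of *Axl* were 133 and 125 in WT and 277 and 279 in KO, close to each other within each genotype. They differed 2.16-fold (log2 fold change 1.10, SE 0.32, adjusted p = 0.00593), which is 0.54 above the median of all active genes. The gene body change of *Axl* was near the fold threshold and fell below it without WT1 (0.59) or without KO1 (0.56).

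*Amotl2* and *Ajuba* encode scaffold proteins. AMOTL2, of the angiomotin family, binds YAP and holds it in the cytoplasm, and AJUBA, a LIM domain protein, inhibits LATS kinases. *Amotl2* (chromosome 9, 102717091 to 102733418) had 2564 and 3007 normalized gene body reads in WT and 3729 and 3594 in KO. The log2 fold change of 0.40 (SE 0.11, adjusted p = 0.00614) passed the p threshold but not the fold threshold, with both KO libraries above WT. Its promoter values overlapped between the genotypes, with 883 and 567 in WT and 734 and 1064 in KO (log2 fold change 0.32, SE 0.29, adjusted p = 0.374).

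*Ajuba* (chromosome 14, 54567469 to 54577661) had 257 and 335 normalized gene body reads in WT and 374 and 379.6 in KO, a log2 fold change of 0.36 (SE 0.16, adjusted p = 0.0788). At the promoter it had 185 and 232 in WT and 227 and 323 in KO (log2 fold change 0.39, SE 0.31, adjusted p = 0.328). Its gene body values were lowest in WT1, and KO1 lay below WT2 at the promoter.

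**Figure D2:**
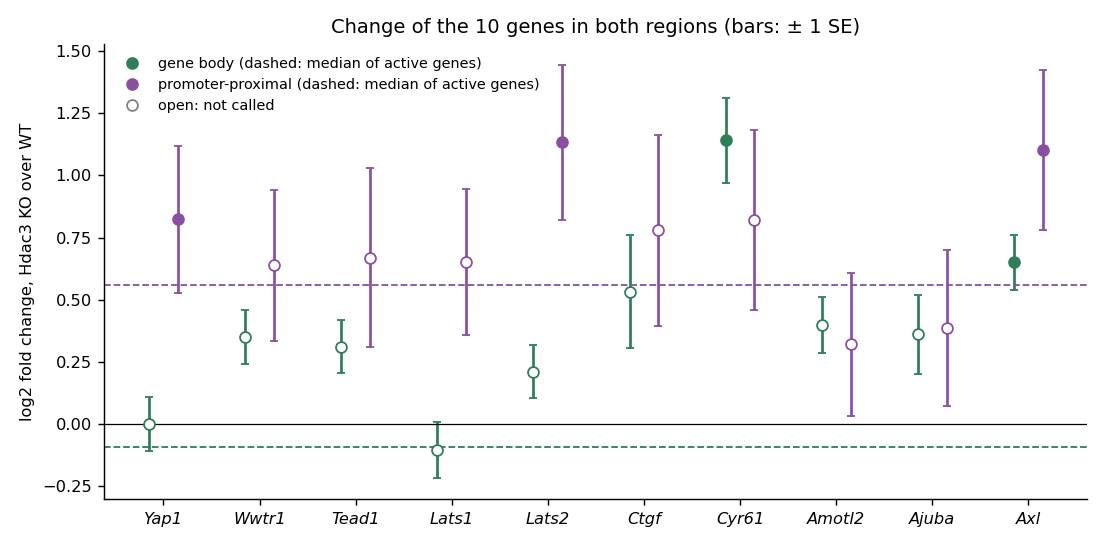
Log2 fold changes of KO over WT (vertical axis) for the 10 genes in the gene body (green) and at the promoter-proximal window (purple), with bars of 1 SE. Filled points passed both thresholds, and dashed lines mark the medians of all 12705 active genes, -0.09 for gene bodies and 0.56 for promoter-proximal windows. The points of 9 genes are above the gene body line and those of 8 genes above the promoter-proximal line.

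Against the background of all active genes, the 2 regions read differently. In gene bodies, the median log2 fold change of the members was 0.36, against -0.09 over all active genes, and 8 of 10 had a value above 0, against 39.8% of active genes. The 2 members whose KO and WT libraries overlapped were *Yap1* and *Lats1*. Without the fold threshold, 17% of active genes rose, and 5 members: *Cyr61*, *Axl*, *Amotl2*, *Wwtr1* and *Tead1*. The members were chosen with these results known, so the counts describe them and test nothing.

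At the promoter, most genes of the table moved the same way as the members. The median of the members was 0.72, against 0.56 over all active genes, where 84.2% had a value above 0. All 10 members were above 0, and the KO libraries lay above the WT libraries for 8 of them, all but *Amotl2* and *Ajuba*, and for 61.9% of active genes. Relative to the median of active genes, *Lats2* and *Axl* changed by 0.57 and 0.54, *Yap1* and *Cyr61* by 0.26 each, *Ctgf* by 0.22, *Tead1*, *Lats1* and *Wwtr1* by 0.11, 0.09 and 0.08, *Ajuba* by -0.17 and *Amotl2* by -0.24. With each region scaled to its own median of ratios, which sets the median promoter-proximal change near 0, none of the 3 promoter calls remained, and *Lats2*, *Axl* and *Yap1* changed by 0.56, 0.53 and 0.25.

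KO2, the library with the fewest reads and the highest promoter-proximal share, had a higher promoter value than KO1 in 8 of the 10 genes, though barely so in *Axl*. The promoter calls of *Lats2*, *Axl* and *Yap1* were each lost without KO2, without WT1 and without WT2. Their log2 fold changes were 0.81, 1.10 and 0.68 without KO2, 1.202, 1.147 and 1.085 without WT1, and 1.06, 1.06 and 0.56 without WT2. Over all active genes, 319, 703 and 493 were called up in these fits, against 3282 with all libraries. Of the members that were not called, *Cyr61* changed by 0.47 without KO2, *Tead1* by 0.39, *Wwtr1* by 0.32, *Ajuba* by 0.13 and *Amotl2* by 0.053, each smaller than with it by more than 1.5 times, while *Ctgf* (0.81) and *Lats1* (0.67) changed as much as with it.

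The pausing index divides the density of the promoter-proximal window by that of the gene body and so relates both regions within a library. In *Yap1* it was 184 and 143 in WT and 263 and 312 in KO, with no overlap. The index of *Lats1* was 88.1 and 108 in WT and 153 and 177 in KO, and that of *Lats2* 85.2 and 75.5 in WT and 120.1 and 194 in KO. These were the 3 members with an unadjusted p under 0.05 in limma, a count not made over all active genes. All 3 were higher in both KO libraries, but so were *Axl* and *Tead1*, and 88.8% of active genes had a log2 fold change above 0. Their log2 fold changes were 0.82, 0.76 and 0.92, with adjusted p of 0.118, 0.143 and 0.0921 in limma and 0.255, 0.282 and 0.223 with the replicate number as a block, the nearer analogue of the stratified test named in the methods of the study. None of the members was called up or down, against 11.2% and 0.543% of active genes.

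In *Cyr61*, the pausing index was 16.1 and 13.9 in WT and 9.11 and 15.9 in KO, overlapping between the genotypes (log2 fold change -0.32, adjusted p = 0.514). It was 32.9 and 28.3 in WT and 39.2 and 44.9 in KO for *Axl*, whose 2 regions both rose (log2 fold change 0.45, adjusted p = 0.406). *Cyr61* and *Amotl2* had values of -0.32 and -0.08, and the other 8 members were above 0. The median of the members was 0.32 and that of all active genes 0.61, and 3 members, *Lats2*, *Yap1* and *Lats1*, were above the latter.

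**Figure D3:**
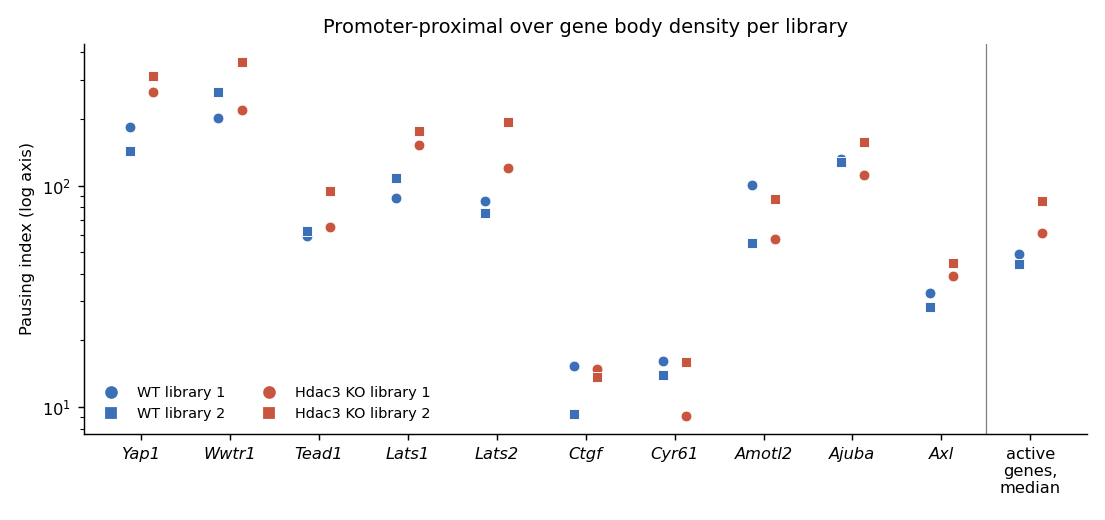
Pausing index (log axis) of the 10 genes in each library, with the median of all active genes at the right (49.3 and 44.3 in WT, 61.1 and 85.0 in KO). *Ctgf* and *Cyr61* lie between 9.11 and 16.1 in all libraries, below the median, and *Wwtr1* and *Yap1* lie above the median in all libraries, at 143 or more.

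The genes also held very different levels in WT liver. Per length of gene body, *Amotl2* was highest, with 175 and 206 normalized reads per kb in the WT libraries and a mean at the 95.1st percentile of active genes. *Axl* (80.9 and 88.2) and *Lats1* (83.9 and 82.6) followed with overlapping values, then *Cyr61* (68.3 and 80.4) and *Ctgf* (42.0 and 77.6), which also overlapped. *Yap1* (49.8 and 44.6) overlapped with both *Ctgf* above it and *Lats2* (44.7 and 45.8) below it. *Ajuba* (28.0 and 36.4), *Wwtr1* (27.8 and 24.5) and *Tead1* (18.9 and 20.1) were lowest and did not overlap with their neighbours, with *Tead1* at percentile 26.9. The median active gene had 37.7. In KO livers *Cyr61* moved from rank 4 to rank 2 of the 10, with 170 and 158 normalized reads per kb, while *Amotl2* stayed first and *Wwtr1* and *Tead1* stayed last.

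At the promoter the order was different. *Amotl2* was again highest, with a WT mean of 14504 normalized reads per kb, and *Lats1*, *Yap1* and *Wwtr1* followed at 8144, 7758 and 6049, each overlapping with the next. *Cyr61* and *Ctgf* were the lowest, at 1111 and 681, against a median of 1841 over active genes. The pausing index set the groups apart in the same way, with WT percentiles of 91.5 for *Wwtr1* and 85.6 for *Yap1*, and of 18.9 for *Cyr61* and 15.3 for *Ctgf*. The secreted targets had little polymerase at the promoter for their gene body level, and the coactivators had much.

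Other parts of the pathway were counted from lists written from general knowledge, without the 10 members. Beside them, 10.4% of all active genes rose and 11.4% fell in the gene body (median log2 fold change -0.09). Of 15 other Hippo kinases and upstream regulators, all active, 3 rose in the gene body, none fell and 12 were not called (median log2 fold change 0.16). They were *Dchs1* (1.0, adjusted p = 8.17e-07) and *Fat4* (0.78), which encode giant cadherins that bind each other across cells, and *Map4k4* (0.63), a kinase that can phosphorylate LATS proteins. The normalized gene body reads of *Dchs1* went from 621 and 745 in WT to 1373 and 1357 in KO. The change of *Map4k4* fell below the fold threshold without WT1 (0.59) or without KO1 (0.58). At the promoter 6 of the 15 rose and none fell (median 0.67, against 25.8% called up and a median of 0.56 over active genes). Among rises with 50 or more normalized reads on average, the largest were those of *Wwc2* (1.33), which encodes a relative of the LATS activator KIBRA, *Stk3* (1.01), which encodes the kinase MST2, and *Mob1b* (0.96), which encodes a cofactor of LATS kinases. The 6 promoter calls became 3 with the replicate block and 1 with scaling within the region.

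Of the other genes of the YAP/TAZ-TEAD module and its binding partners, 9 of 10 were active. In the gene body 3 rose and 1 fell (median 0.37), against 10.4% and 11.4% of all active genes (median -0.09). *Tead4* rose from 503 and 616 normalized reads in WT to 1338 and 1275 in KO (log2 fold change 1.23, adjusted p = 6.90e-08). *Tead3* fell from 972 and 1108 to 604 and 703 (log2 fold change -0.67, adjusted p = 0.000207), but its call was lost with every other scaling (-0.59), without WT2 (-0.58) and without KO1 (-0.56), which left it below the fold threshold. *Amotl1*, an angiomotin relative like *Amotl2*, and *Ptpn14*, a phosphatase that binds YAP, both rose by 0.95. At the promoter 4 of the 9 rose and none fell (median 0.73, against 25.8% called up and a median of 0.56 over active genes). *Tead4* (1.94), *Ptpn14* (1.58) and *Amotl1* (1.39) led there.

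Of 17 other YAP/TAZ target genes, 12 were active, of which 6 rose and none fell in the gene body (median 0.52). Among all active genes, 10.4% rose and 11.4% fell there (median -0.09). *Arhgef17*, a gene for a guanine nucleotide exchange factor, had 615 and 869 normalized reads in WT and 2208 and 2325 in KO, a log2 fold change of 1.63 (adjusted p = 2.01e-09). *Ccdc80*, a gene for an extracellular matrix protein, rose by 1.29, and *Igfbp3*, an IGF binding protein gene, by 0.99. The same genes led at the promoter, with 1.89 for *Arhgef17*, 1.77 for *Ccdc80* and 1.64 for *Igfbp3*. There 5 of 12 rose and none fell (median 0.69, against 25.8% called up and a median of 0.56 over active genes). *Ptpn14* belongs to this list as well as to the module list.

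*Cyr61* and *Ctgf* are also known to respond within minutes to serum and stress, as immediate-early genes do, so these were counted too. Of 14 immediate-early genes 13 were active, and 6 rose and none fell in the gene body (median 0.30). Among all active genes, 10.4% rose and 11.4% fell there (median -0.09). *Atf3* rose by 1.32, *Jun* by 0.90 and *Fosb* by 0.80, all 3 encoding transcription factors of the AP-1 and ATF families. Of the 7 not called, *Junb* (0.30) and *Fosl2* (0.09) were above 0. Below 0 were *Fos* (-0.09), *Egr1* (-0.18), *Dusp1* (-0.21), *Zfp36* (-0.33) and *Ier2* (-0.39). *Jun* had 513 and 853 normalized reads in WT and 1257 and 1221 in KO, with a wide gap between the WT libraries, as in *Ctgf*. Its change fell below the fold threshold without WT1 (0.54), and the call of *Fosb* was lost without KO2 (0.66). At the promoter 5 of the 13 rose and none fell, against 25.8% of active genes called up and 2.2% called down. *Egr2* (1.42), *Ier3* (1.38) and *Klf6* (1.11) led, and the median of 0.60 was 0.04 above that of active genes. Scaling within the region left 2 rises and 1 fall there, and the replicate block left 3 rises. Their part in the change of *Cyr61* was not tested.

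Markers of the liver cell types changed as well, while 10.4% of all active genes rose and 11.4% fell in the gene body. Many of the member genes are expressed outside hepatocytes. Of 5 hepatocyte markers 4 fell and none rose in the gene body, and their summed normalized reads were 251546 and 252675 in WT and 115929 and 111255 in KO (*Apoa1* -1.76). Of 7 stellate cell markers 6 rose, with sums of 9212 and 10327 in WT and 20552 and 19038 in KO (*Ecm1* 0.40, the one not called). All 5 fibroblast and matrix markers rose, from sums of 1436 and 1871 to 4567 and 4166 (*Dcn* 1.62), and 4 of 7 endothelial markers rose and none fell, from 55945 and 61336 to 103429 and 92961 (*Stab2* 0.79).

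In the gene body, markers of the other types mostly fell or did not pass the test. None of 6 Kupffer cell and macrophage markers was called, with sums of 14073 and 14726 in WT and 17711 and 15227 in KO (*Clec4f* 0.09). The 3 active cholangiocyte markers gave 1 fall and no rise (all 6: sums of 161 and 212 in WT and 187 and 159 in KO, *Sox9* -1.33), and all 3 measured erythroid markers fell, from 390 and 473 to 171 and 146 (*Klf1* -1.32). Of 4 leukocyte markers 1 rose (sums of 4549 and 4323 in WT and 6275 and 5024 in KO, *Lyz2* -0.31). None of the 3 mesothelial markers was active, with sums of 57.4 and 83.0 in WT and 144 and 167 in KO, almost all of it *Wt1*. At the promoter, 25.8% of all active genes rose and 2.2% fell. There 6 of 7 stellate cell, all 5 fibroblast and matrix and all 7 endothelial markers rose, and 2 of 5 hepatocyte markers fell. Of the other types, 1 of 6 Kupffer cell and macrophage, 1 of 3 active cholangiocyte and 2 of 4 leukocyte markers rose. In addition 1 cholangiocyte marker fell, and no erythroid marker was called. No marker was at 0 in all libraries. The rises of *Cyr61*, *Axl*, *Arhgef17*, *Ccdc80* and *Dchs1* went together with those of the stellate, fibroblast and endothelial markers, and the part of these cell types in them was not tested.

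**Figure D4:**
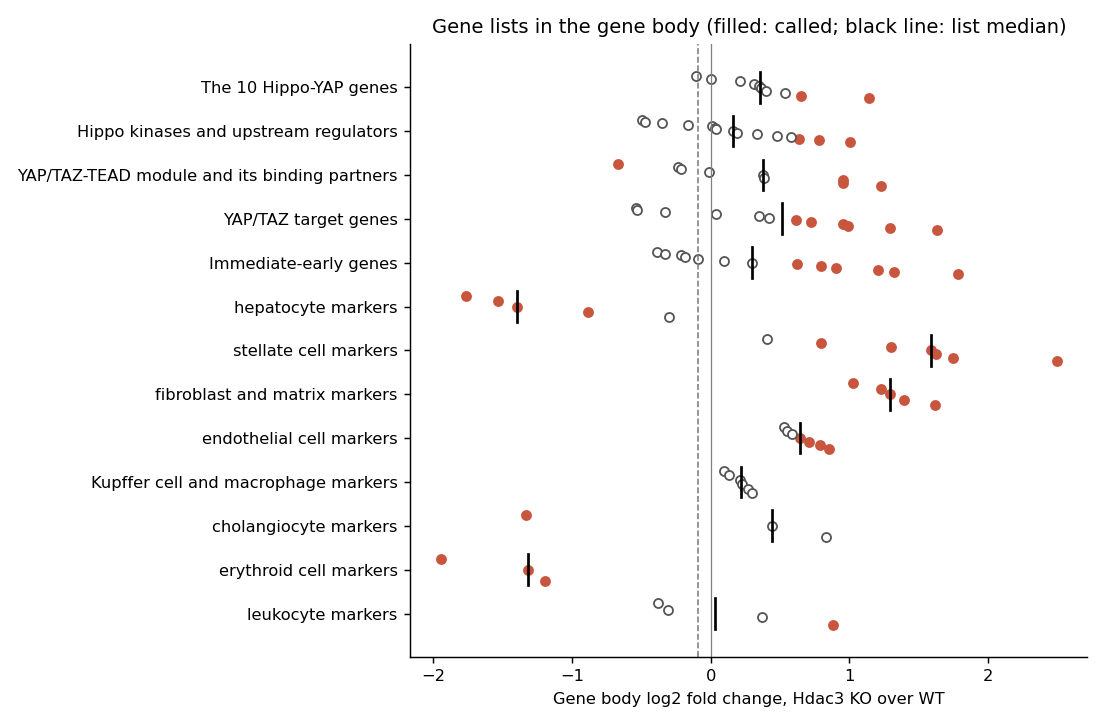
Gene body log2 fold changes of KO over WT (horizontal axis) for the 10 Hippo-YAP genes, for 4 pathway lists without them and for 8 lists of cell type markers, a point per active gene, filled where called. Black lines mark list medians (0.36 for the 10 genes, 0.52 for other YAP/TAZ targets), and the dashed line marks the median of all active genes. The stellate and fibroblast markers lie furthest to the right and the hepatocyte markers to the left.

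The list of enhancers, called by the authors on the reads pooled over the 4 libraries, named a member gene as the closest gene for 4 of its 2282 enhancers. Those nearest *Amotl2* lie at chr9:102689335-102690729, 27075 bp from its TSS, and at chr9:102709005-102711130, 6674 bp from it, and the former overlaps a FANTOM5 enhancer. For *Ctgf* they lie at chr10:24447236-24449290 and chr10:24534024-24535955, 146152 and 59487 bp away. *Amotl2* was the one member with enhancers within 50 kb. Over the whole list, 1379 genes were closest to at least 1 enhancer. The authors called intergenic enhancers only, so enhancers inside genes are not listed. In all, 16 enhancers had some link to 7 of the members, the others by chromatin contacts of 4DGenome, mostly with enhancers on other chromosomes. The list holds no value per library, so no change of these enhancers is given.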

How the data were processed

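Nuclear RNA of 4 PRO-seq libraries (2 WT, 2 *Hdac3* KO) was analysed from the table of 20820 transcripts that the authors deposited. The authors trimmed reads with cutadapt, aligned them to mm10 with Bowtie2, removed rRNA and reads of mapping quality below 10, and counted with NRSA. The deposited values are normalized signal, that is reads times a factor per library (1.15, 1, 1.06 and 1.52 for WT1, WT2, KO1 and KO2), and the authors also deposited densities (signal per bp). Division by these factors gave whole reads (tolerance 0.01) for 100% of 41640 values per library, 16628518 to 26190040 reads on genes. Few reads widen the error of a low gene. The deposited enhancer list gives positions in bp and comes from pooled reads.

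A gene with several transcripts was represented by the one with the largest mean in its promoter-proximal window. Log2(normalized reads + 1) of KO and WT was compared in R 4.3.3 with limma 3.58.1 (empirical Bayes with trend, without a block) over 12705 active genes, with Benjamini-Hochberg adjustment over all of them. The activity cutoff of 4 normalized reads per kb was used on the deposited scale, since totals are not given in the sources used here. A fold change on this scale understates that of low genes. Alternatives were edgeR 4.0.16 and DESeq2 1.42.0 on recovered reads, pseudocounts 0.1 and 10, other filters, scalings, transcripts and thresholds, a block by replicate number, and fits without each of the libraries. The statistics were tested on simulated data without a shift of a whole region, so this test does not cover the promoter-proximal shift seen here. Motifs were searched on both strands of RefSeq windows with Python 3.11.15. Older symbols were matched through RefSeq accessions. The coordinates of genes are those of GRCm38.p6, the assembly of mm10.

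The members and lists were chosen with earlier results of these data known. Named were the 10 members, *Hdac3*, up to 3 called genes per list, region and direction (mean of at least 50 normalized reads, no overlap of genotypes), and the marker with the highest gene body density of each list. Libraries of the same number are not stated to share mice or a day. The p-values rest on the spread between libraries, each its own pool of mice and its own preparation, and do not separate these.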

Additional observations from a re-analysis of the deposited data

How the results depend on the processing

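In the gene body, *Cyr61* and *Axl* rose with edgeR, DESeq2, both pseudocounts, the stricter filter, every other scaling, both replicate blocks and the other rule for transcripts. Without a filter on activity, limma called no member in either region (0 of 10 each). In the gene body, *Cyr61* then had an adjusted p of 0.0524 and *Axl* of 0.0711. Of the 20642 genes of the whole table, 406 were called up and 591 down in the gene body, and 0 at the promoter. Without that filter, 0 kinases and regulators, 0 genes of the YAP/TAZ-TEAD module in either direction, 3 other target genes and 0 immediate-early genes were called in the gene body, and 0 of any list at the promoter. Without a threshold on the fold change, 5 members and 6 kinases and regulators rose in the gene body. There 3 kinases and regulators, 1 other target gene and 2 immediate-early genes fell, while 2161 of all active genes rose and 2807 fell.

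Leaving out 1 library in turn gave 1 to 3 members called up in the gene body, 0 to 5 at the promoter and 0 to 2 for the pausing index. At the promoter, 0 members remained without WT1, without WT2 or without KO2, and 5 were called without KO1, while 703, 493, 319 and 3522 of all active genes were called up in these fits, against 3282 with all libraries. In the gene body, 1 was called without WT1 or without KO1, and *Ctgf* was called in addition without WT2. For the other lists these ranges were 2 to 4 rises and 0 to 1 falls in the gene body and 0 to 7 rises at the promoter (kinases and regulators), 0 to 1 falls in the gene body and 1 to 3 rises at the promoter (module), 3 to 6 rises at the promoter (other targets), and 4 to 5 rises and 0 to 1 falls in the gene body and 0 to 5 rises at the promoter (immediate-early genes). The fall of *Tead3* was lost without WT2 and without KO1. A fit that leaves out a library assumes that the lone library of its group varies like the others.

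Scaling within each region, by median of ratios or by TMM, left 0 members, 1 kinase or regulator and 2 immediate-early genes called up at the promoter, with 1 other target gene and 1 immediate-early gene called down, and 0 falls among the module genes in the gene body, as did gene body factors for both regions (0). It turned the promoter changes of *Amotl2* to -0.25, of *Ajuba* to -0.18 and of *Hdac3* to -0.19, the gene body change of *Yap1* to 0.081 by median of ratios (also with gene body factors) and 0.079 by TMM, and the changes in pausing index to -0.36 for *Wwtr1*, -0.29 for *Tead1*, -0.39 for *Ctgf*, -0.62 for *Ajuba* and -0.20 for *Axl*. None of these changes passed the test in either setting. Of all active genes, 634 were called up at the promoter by median of ratios and 638 by TMM, against 3282 in the main fit.

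Other signs turned when a library was left out, again in changes that did not pass the test. The lowest and highest values without 1 library were -0.080 and 0.079 for the gene body of *Yap1*, -0.22 and 0.014 for *Lats1*, -0.013 and 0.20 for *Clec4f*, and -0.64 and 0.021 for *Lyz2*, and -0.073 and 0.83 for the promoter of *Hdac3*. For the pausing index they were -0.072 and 0.65 for *Wwtr1*, -0.11 and 0.61 for *Ctgf*, -0.72 and 0.079 for *Cyr61*, -0.51 and 0.36 for *Amotl2*, and -0.22 and 0.27 for *Ajuba*.

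The replicate numbers did not pair the libraries, since WT1 and KO1, each taken relative to its group mean, had a correlation of -0.105 at the promoter and 0.019 in the gene body over 12705 genes. With the replicate block, *Yap1* was not called at the promoter (adjusted p = 0.0838), which left 2 members, and 3 kinases and regulators and 3 immediate-early genes were called there, while 1772 active genes were up in place of 3282. Crossing the pairs, an alternative added after seeing the data, called 6 members up at the promoter and 3 for the pausing index. Of all 12705 active genes, it called 4861 up at the promoter and 4121 for the pausing index. The cause of these shifts was not tested. Depth limits *Ctgf*, *Cyr61* and *Tead1* most, with 28 to 83 reads per library at the promoter.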
